A study of Mus musculus with 4 samples.

Results

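The genes described here are 39 mouse genes of sphingolipid and ceramide metabolism, taken by gene symbol from a table of 51826 annotated features. They cover the synthesis of ceramide, its conversion to sphingomyelin and glycosphingolipids, its breakdown, and the sphingosine 1-phosphate branch. The table came from total RNA of 4 RNA-seq libraries of mouse bone marrow cells that were depleted of lineage-marked cells, positive for the stem cell factor receptor c-Kit, and transduced with the MLL-AF9 leukaemia fusion gene. Of these, 2 libraries were labelled WT and 2 were labelled Elovl6 KO, all at 2 weeks; both groups carried MLL-AF9, and the labels used here do not give the knockout allele, the sex or age of the mice, or whether replicates came from separate animals or transductions. The p-values below therefore measure the spread between these libraries, which may be technical.

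Sphingolipid synthesis starts with the condensation of serine and palmitoyl-CoA by serine palmitoyltransferase, and ceramide synthases then attach a second fatty acyl chain, each enzyme with its own preference for chain length. Ceramide is the hub of the pathway: it can be turned into sphingomyelin, glucosylceramide or ceramide phosphate, or cut by ceramidases to sphingosine, which is phosphorylated to the signalling lipid sphingosine 1-phosphate. Elovl6 elongates palmitoyl-CoA to stearoyl-CoA, so its substrate and its product are both acyl donors of this pathway.

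Read counts over annotated exons summed to 9883596 and 11941588 in the WT libraries and to 8986502 and 9699502 in the KO libraries. Elovl6 itself was counted 1290 and 1673 times in the WT libraries and 17 and 34 times in the KO libraries, a log2 fold change (KO minus WT) of -5.63 ± 0.17 (SE), in the direction the labels give (edgeR adjusted p = 4.52e-05). The progenitor markers Kit (140 and 131 CPM, counts scaled to library size, in WT; 139 and 111 in KO) and Cd34 (22.9 and 23.9; 18.6 and 21.4) were present in all 4 libraries. A list of 11 monocyte and macrophage genes reached 337 and 416 CPM in sum in the WT libraries, and 908 and 1461 CPM in the KO libraries, with none of the 11 at 0, 3 of the 11 called higher in edgeR and the highest sum in KO replicate 2. Summed levels of 8 neutrophil genes lay at 9364 and 9864 CPM (WT) and at 9200 and 6019 CPM (KO). These 8 genes did not move together, and 0 were called in edgeR. Log2 fold changes were -0.47 to -0.05 for Elane, Prtn3, Mpo, Ctsg and S100a8, and 0.17 to 1.61 for S100a9, Ltf and Camp. Erythroid genes summed to 21.2 and 26.0 CPM (WT) and to 8.12 and 5.35 CPM (KO), with Hba-a1 at 0 in every library. T and NK genes summed to between 10.6 and 11.2 CPM, with Cd3e, Cd8a and Ncr1 at 0 and 10.3 to 10.9 CPM of each sum from Nkg7 alone. In bulk RNA, fewer cells of a type and less RNA per cell cannot be told apart.

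Few genes of the pathway separated the genotypes beyond replicate spread. Of the 39 members, 32 passed the filter on low counts, and 1 of these, Smpd1, was called at an adjusted p under 0.05 by edgeR's quasi-likelihood test (Benjamini-Hochberg adjustment over 11738 genes). That is 3.12% of the members tested, against 2.8% of all genes tested; 1.82% of all genes were called higher and 0.98% lower. The median log2 fold change was 0.03 over the 32 members and -0.0037 over all genes tested. Both KO libraries lay above both WT libraries for 12 of the 32 members, where 26.8% of all genes did so, and below them for 5 of the 32, where 27.0% of all genes did so. At an unadjusted p under 0.05, 8 members were higher and 1 was lower, against 1369 and 1069 of the 11738 genes. The 2 KO replicates were less alike than the 2 WT replicates: the median absolute log2 ratio between replicates was 0.183 over the members in KO and 0.121 in WT, and 0.126 and 0.110 over all genes tested.

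**Figure D1:**
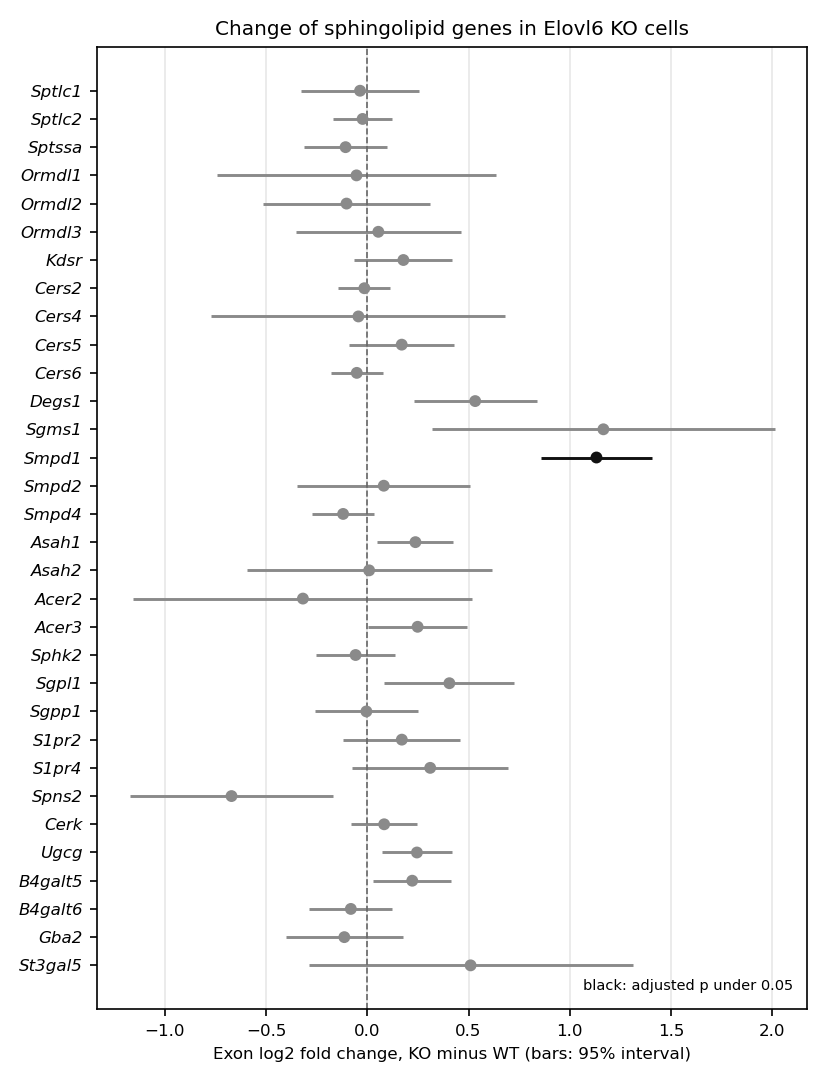
Log2 fold change of exon counts (KO minus WT, horizontal axis) with its 95% interval for the 32 members that passed the filter, in order of pathway role. Smpd1 (1.13) is the black point; Sgms1 (1.17) lies as far right with a much wider interval, and Spns2 (-0.67) lies farthest left.

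The call fell on Smpd1, which encodes acid sphingomyelinase, the lysosomal enzyme that cuts sphingomyelin to ceramide and phosphocholine. Introns were the other place where members were called: reads from the introns of Sgms1, a Golgi sphingomyelin synthase, and of St3gal5, the sialyltransferase that makes the first ganglioside from lactosylceramide, were both higher in KO cells. Smpd1 and St3gal5 were matched to promoters in the RefSeq table (build GRCm38.p6), and the 250 bases before each RefSeq start are shown because Smpd1 was the member called in exon reads and St3gal5 the one with the larger called change in intron reads. Both lie on the plus strand, at chr7:105554110-105554359 for Smpd1 and chr6:72097358-72097607 for St3gal5. Capitals mark GC boxes, matched as GGGCGG or its reverse complement CCGCCC.
Smpd1: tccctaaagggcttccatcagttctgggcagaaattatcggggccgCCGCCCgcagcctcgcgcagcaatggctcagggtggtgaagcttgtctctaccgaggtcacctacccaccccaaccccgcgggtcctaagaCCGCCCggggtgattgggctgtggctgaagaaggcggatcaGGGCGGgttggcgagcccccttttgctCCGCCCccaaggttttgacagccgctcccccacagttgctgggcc
St3gal5: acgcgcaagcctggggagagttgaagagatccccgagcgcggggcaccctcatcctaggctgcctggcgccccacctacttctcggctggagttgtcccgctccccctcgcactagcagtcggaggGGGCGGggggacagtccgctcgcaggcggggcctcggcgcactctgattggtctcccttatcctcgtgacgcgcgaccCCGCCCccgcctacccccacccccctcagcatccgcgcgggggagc
The Smpd1 stretch held 4 GC boxes and was 64.8% G or C, and the St3gal5 stretch held 2 GC boxes and was 71.6% G or C; neither held the E-box CACGTG, whose letters read the same on both strands and share no match with the GC box. The same 250 bases before the start were searched in all RefSeq windows, where 35 of the 39 members were matched, with 45 windows. A GC box stood in 25 of those 45 windows (55.6%) and in 10756 of all 32851 windows (32.7%). An E-box stood in 6 of the 45 (13.3%) and in 1978 of all windows (6.02%). A match describes letters only and does not show a bound site.

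Smpd1 (ENSMUSG00000037049, protein coding, chr7:105554360-105558389 on the plus strand of mm10) had 189 and 223 exon counts in the WT libraries and 344 and 435 in the KO libraries. After scaling, the WT libraries stood at 19.2 and 18.7 CPM and the KO libraries at 38.2 and 44.8 CPM. Both KO libraries lay above both WT libraries, with no overlap, and KO replicate 2 was the higher. The mean was 19.0 ± 0.398 CPM in WT and 41.5 ± 4.62 CPM in KO (SD, n = 2 each), a ratio of 2.19. The log2 fold change was 1.13 ± 0.12 (SE), with a 95% interval of 0.86 to 1.41, and the edgeR adjusted p was 0.00786. The authors' deposited table lists a fold of 2.17 for Smpd1 with a corrected p of 3.66e-11. Reads spanning exon junctions of Smpd1 numbered 17 and 30 (WT) and 64 and 69 (KO), and their log2 fold change was 1.71 (edgeR adjusted p = 0.00238). With 1, 0, 2 and 3 reads, the introns of Smpd1, which span 693 bases in all, were too short and too sparse to test. The call was lost when either WT replicate was left out: the log2 fold change was then 1.148 (edgeR adjusted p = 0.168) without WT replicate 1 and 1.10 (edgeR adjusted p = 0.130) without WT replicate 2.

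Apbb1, which encodes an adaptor protein of the amyloid precursor protein, lies 93 bases beyond the end of Smpd1 on the opposite strand (chr7:105558483-105581653), so that transcription of both genes runs toward the gap between them. Apbb1 had 2 exon counts in each WT library against 20 and 54 in the KO libraries, a log2 fold change of 4.32 ± 0.70 (SE; edgeR adjusted p = 0.0355). That call was lost with limma-voom (adjusted p = 0.0640) and in edgeR without WT replicate 1, without WT replicate 2 and without KO replicate 2 (adjusted p = 0.336, 0.241 and 0.0569). Within 1 Mb on each side of Smpd1, 2 of 15 genes tested were called (13.3%), and these were Smpd1 and Apbb1; within 5 Mb it was 4 of 71 (5.63%). No source used here states whether reads were counted by strand. The Smpd1 junction reads, which span its own splice sites, differed in the same direction as its exon counts. The summed monocyte and macrophage genes given above were also higher in both KO libraries; their part in the Smpd1 difference was not tested.

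**Figure D2:**
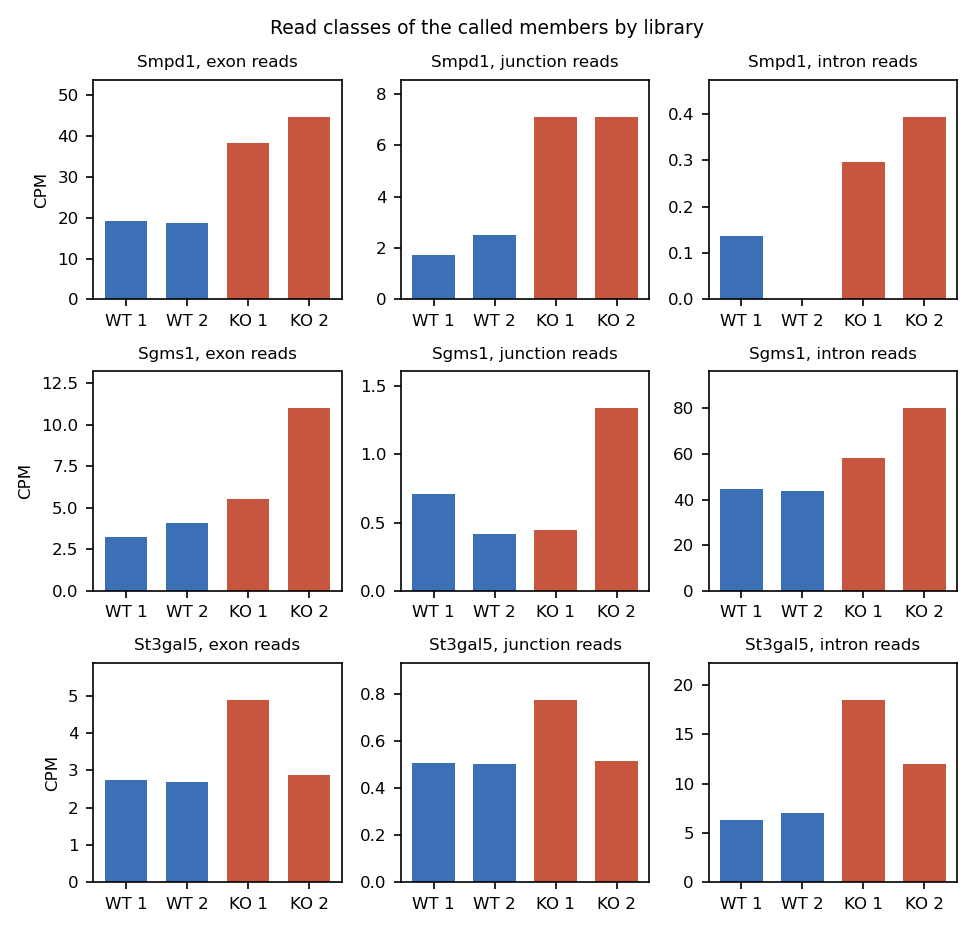
Exon, junction and intron reads (CPM, vertical axes starting at 0) of Smpd1, Sgms1 and St3gal5 in each of the 4 libraries; bars are single libraries, blue for WT and red for KO. Smpd1 exon reads are near 19 CPM in both WT libraries and at 38.2 and 44.8 CPM in KO, Sgms1 reads are highest in KO replicate 2, and St3gal5 reads are highest in KO replicate 1.

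Among the other sphingomyelin genes, Sgms1 had few exon reads and many intron reads. Exon reads over it numbered 32 and 49 (WT) and 50 and 107 (KO), or 3.26 and 4.11 CPM against 5.56 and 11.02 CPM. KO replicate 2 stood apart, and KO replicate 1 was only slightly above WT. The exon log2 fold change of 1.17 ± 0.36 (SE; 95% interval 0.32 to 2.01) did not pass (edgeR adjusted p = 0.131). Without KO replicate 2 it was 0.59 (edgeR adjusted p = 0.514), and without KO replicate 1 it was 1.57 (edgeR adjusted p = 0.00397). The authors' deposited table lists a fold of 2.22 for Sgms1 with a corrected p of 0.000777. Unique intron reads of Sgms1 numbered 326 and 388 (WT) and 392 and 608 (KO), which is 44.6 and 43.5 CPM against 58.0 and 80.0 CPM. Here both KO libraries were clearly above WT, again with KO replicate 2 the higher. The intron log2 fold change was 0.65 ± 0.14 (SE), and it passed (edgeR adjusted p = 0.0451). The value was 0.40 without KO replicate 2 (edgeR adjusted p = 0.109), and the call was also lost without WT replicate 1 (edgeR adjusted p = 0.134), without WT replicate 2 (edgeR adjusted p = 0.131), and with library sizes taken from exon reads (edgeR adjusted p = 0.0541). KO replicate 2 was also the library with the highest sum of monocyte and macrophage genes, 1461 CPM; the part of those cells in the Sgms1 difference was not tested. AC113485.1, annotated inside Sgms1 on the same strand over 5092 bases, was not found in the table, so its reads cannot be told apart from Sgms1 intron reads.

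Among the 39 genes, Smpd4, a neutral sphingomyelinase, was the most abundant sphingomyelin gene per length in WT, at 11.7 ± 0.346 CPM per kb of exon against 5.68 ± 0.119 for Smpd1. In KO the order was reversed, with 10.7 ± 0.424 for Smpd4 and 12.4 ± 1.38 for Smpd1 (SD, n = 2 each). The ratio of Smpd1 to Smpd4 per kb was 0.484 and 0.490 in WT and 1.04 and 1.28 in KO, so that both KO libraries lay above both WT libraries. For Smpd4 the log2 fold change was -0.12 ± 0.064 (SE; edgeR adjusted p = 0.346). Smpd2, another neutral sphingomyelinase, lay at 2.87 ± 0.508 CPM per kb in WT and 3.04 ± 0.325 in KO. Smpd3, a neutral sphingomyelinase known mostly from brain and bone, had 2, 0, 0 and 1 counts, and 3.30% of the exon reads over it were uniquely placed.

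St3gal5 (chr6:72097592-72154571, plus strand) was called in intron reads alone. Its intron reads numbered 46 and 63 (WT) and 125 and 91 (KO), or 6.30 and 7.07 CPM against 18.5 and 11.98 CPM. Both KO libraries were above WT, and KO replicate 1 was the higher, the reverse of Sgms1. The mean was 6.68 ± 0.543 CPM in WT and 15.2 ± 4.62 CPM in KO (SD, n = 2 each), and the log2 fold change was 1.18 ± 0.24 (SE; edgeR adjusted p = 0.0354). Exon reads of St3gal5 numbered 27 and 32 (WT) and 44 and 28 (KO), a log2 fold change of 0.51 ± 0.34 (SE; edgeR adjusted p = 0.441), which was 0.09 without KO replicate 1 and 0.85 without KO replicate 2. The exon change minus the intron change was -0.67 (edgeR adjusted p = 0.411). The intron call was lost without WT replicate 1 (edgeR adjusted p = 0.124) and without WT replicate 2 (edgeR adjusted p = 0.0698). The genes annotated inside St3gal5, Gm29438 on the same strand and 4933431G14Rik on the other, had 0 counts in all 4 libraries.

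Intron reads come largely from unspliced RNA and were counted for the members separately from exon reads. Of the 28 members that passed the filter in introns, 2 were called (7.14%, against 4.81% of all 12359 genes tested), both higher; over all genes 2.59% were called higher and 2.23% lower. Both KO libraries lay above both WT libraries for 11 of the 28, where 26.3% of all genes did so, and below them for 8, where 25.4% did so. The median intron log2 fold change was 0.079 over the members and 0.0063 over all genes tested. For 26 members exon and intron changes could be compared in one fit, and none differed at an adjusted p under 0.05 (background 1.31% of 10366 genes, 0.897% higher and 0.415% lower). At an unadjusted p under 0.05 in edgeR there were 5 such members, against 1243 of the 10366 genes, and a fit without a term for the library also called 0. These were Sgpp1 (exon minus intron 0.28), Sgms1 (0.51), Sptssa (-0.28), Kdsr (0.28) and St3gal5 (-0.67), with edgeR adjusted p-values of 0.281 to 0.411.

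**Figure D3:**
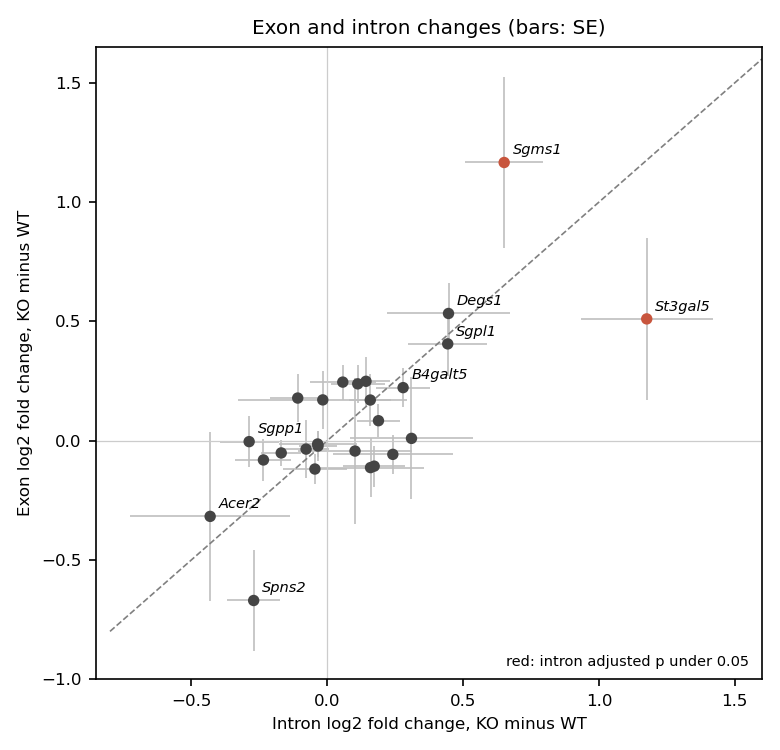
Intron log2 fold change (horizontal axis) against exon log2 fold change (vertical axis), KO minus WT, for the 26 members tested in both; bars are 1 SE, the dashed line marks equal change, and red marks the members called in introns. Sgms1 (0.65, 1.17) lies above the line and St3gal5 (1.18, 0.51) below it, and neither difference passed the test.

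The first step of the pathway was nearly level between genotypes. Per kb of exon, the small activating subunit Sptssa lay at 31.9 ± 0.108 CPM in WT and 29.6 ± 0.966 in KO, ahead of the obligate subunit Sptlc1 (16.6 ± 0.370 and 16.3 ± 2.67) and the catalytic subunit Sptlc2 (14.3 ± 0.552 and 14.04 ± 0.438; SD, n = 2 each). Sptlc1 and Sptlc2 overlapped between genotypes. Their log2 fold changes were -0.04 (95% interval -0.33 to 0.25) and -0.02 (-0.17 to 0.12). Sptssa was lower in both KO libraries by a small amount, with a log2 fold change of -0.11 (edgeR adjusted p = 0.527). The alternative catalytic subunit Sptlc3 had 0 counts in all 4 libraries, which allows up to 3 counts or 0.251 to 0.334 CPM in each. Such limits cover counting error only, whereas the 95% intervals of log2 fold changes also include the spread between libraries.

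The ORMDL proteins hold serine palmitoyltransferase back when ceramide is plentiful. Ormdl2 lay at 11.2 ± 1.33 CPM per kb in WT and 10.5 ± 2.16 in KO, and Ormdl3 at 5.30 ± 0.818 and 5.48 ± 0.0478. Ormdl1 was lower, at 0.831 ± 0.170 and 0.798 ± 0.140. None of these 3 inhibitors separated the genotypes, with log2 fold changes from -0.10 to 0.05. Their levels are uncertain to different degrees: 13.7% of the exon reads over Ormdl1 were uniquely placed, and Gm28778 shares 13199 bases with it on the same strand. For Ormdl2, which lies within Sarnp, 53.6% were uniquely placed, and for Ormdl3 97.5%.

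Kdsr, the reductase that makes dihydrosphingosine, stood at 27.6 and 29.1 CPM in the WT libraries and at 30.7 and 33.5 CPM in the KO libraries. The KO libraries were slightly above WT without overlap. The log2 fold change was 0.18 ± 0.10 (SE; edgeR adjusted p = 0.371), while its intron reads gave -0.11 (edgeR adjusted p = 0.612).

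Ceramide synthases were dominated by Cers2, which prefers very long acyl chains, and Cers6, which prefers palmitoyl-CoA. Per kb of exon, Cers2 lay at 45.1 ± 1.09 CPM in WT and 44.7 ± 0.539 in KO, and Cers6 at 40.7 ± 0.842 and 39.3 ± 0.284 (SD, n = 2 each). Cers5, which also prefers palmitoyl-CoA, followed at 10.3 ± 0.790 and 11.6 ± 1.06, and Cers4, which takes stearoyl-CoA and longer chains, at 0.435 ± 0.0545 and 0.419 ± 0.156. Cers2 and Cers6 were thus the nearest neighbours in this order, and in every library Cers2 was the higher of the pair. Fitted log2 fold changes were -0.01 for Cers2 (95% interval -0.14 to 0.11), -0.05 for Cers6 (-0.18 to 0.08) and 0.17 for Cers5 (-0.09 to 0.43). These intervals were narrow for Cers2 and Cers6, and wide for Cers4 (-0.77 to 0.68). Cers1, which prefers stearoyl-CoA, had 4, 2, 3 and 5 counts, and Cers3 had 2, 0, 1 and 1, so neither was tested in exons. Intron reads of Cers1 numbered 29 and 24 (WT) and 17 and 15 (KO), a log2 fold change of -0.56 (edgeR adjusted p = 0.439). Those of Cers3 numbered 15 and 15 (WT) and 7 and 5 (KO), a log2 fold change of -1.13 (edgeR adjusted p = 0.222).

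As a share of the summed ceramide synthase level per kb, Cers2 made up 46.7% ± 0.647 in WT and 46.5% ± 0.254 in KO. Cers6 made up 42.1% ± 0.442 and 40.9% ± 0.421, and Cers5 10.6% ± 0.926 and 12.02% ± 0.888 (SD, n = 2 each). The Cers6 share was lower in both KO libraries (40.6% and 41.2%) than in both WT libraries (41.8% and 42.4%), by less than 2 percentage points. An exact permutation test with 2 against 2 libraries cannot give a two-sided p below 1 in 3, so such shares were not tested. In introns, Cers6 had 18682 and 21559 reads (WT) and 15405 and 16286 reads (KO), a log2 fold change of -0.17 (edgeR adjusted p = 0.252).

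**Figure D4:**
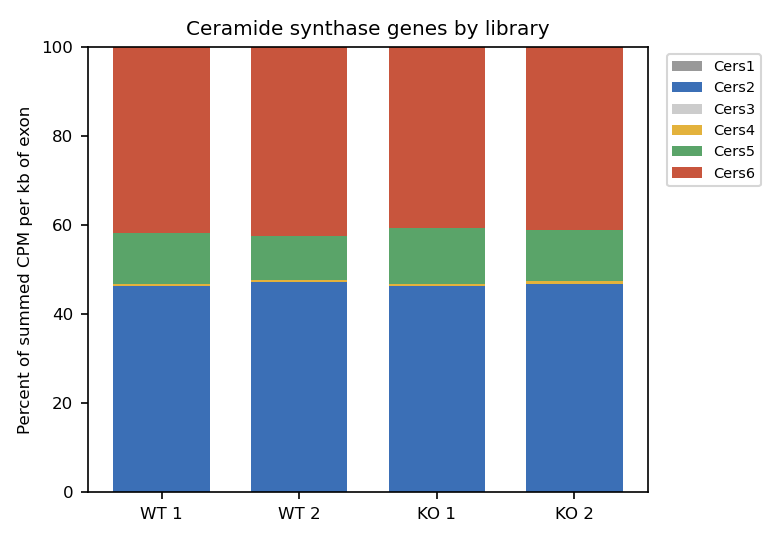
Share of the 6 ceramide synthase genes in their summed level (CPM per kb of exon, percent, vertical axis) in each library. Cers2 takes between 46.2% and 47.1% and Cers6 between 40.6% and 42.4% in all 4 libraries, and Cers1 and Cers3 are too low to be seen.

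Degs1, the desaturase that turns dihydroceramide into ceramide, was at 36.1 and 32.7 CPM in the WT libraries and at 44.1 and 55.1 CPM in the KO libraries. Both KO libraries were above WT, and KO replicate 2 was the highest. The log2 fold change of 0.53 ± 0.13 (SE; 95% interval 0.23 to 0.84) did not pass (edgeR adjusted p = 0.0791), and it was 0.36 without KO replicate 2. The authors' deposited table lists a fold of 1.44 for Degs1 with a corrected p of 0.00888. Junction reads of Degs1 gave a log2 fold change of 0.09 (edgeR adjusted p = 0.927) and its intron reads 0.45 (edgeR adjusted p = 0.333). Degs2, which can also hydroxylate dihydroceramide, had 2, 1, 1 and 3 counts.

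Ceramidases cut ceramide to sphingosine and differ in the pH at which they work. Asah1, the lysosomal acid ceramidase, was the most abundant per length, at 29.8 ± 3.04 CPM per kb of exon in WT and 35.2 ± 0.293 in KO (SD, n = 2 each). The alkaline ceramidase Acer3 lay at 1.99 ± 0.0890 and 2.37 ± 0.0213, the neutral ceramidase Asah2 at 1.03 ± 0.136 and 1.04 ± 0.170, and the alkaline Acer2 at 0.500 ± 0.178 and 0.398 ± 0.0744. Both KO libraries were above both WT libraries for Asah1 and Acer3, by less than the distance seen for Smpd1. The log2 fold change was 0.24 ± 0.079 (SE) for Asah1 (edgeR adjusted p = 0.158) and 0.25 ± 0.10 for Acer3 (edgeR adjusted p = 0.234). Asah2 and Acer2 overlapped between genotypes.

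In the sphingosine 1-phosphate branch no member passed in exon or in intron reads over all 4 libraries with the filter on low counts, by edgeR or DESeq2. At an unadjusted p under 0.05 in edgeR stood 2 members in exons, Sgpl1 and Spns2, and 3 in introns, which were these and Sgpp1; over all genes 2438 of 11738 did so in exons and 2442 of 12359 in introns. Sgpl1, the lyase that ends the pathway by splitting sphingosine 1-phosphate, lay at 47.9 and 46.8 CPM (WT) and at 53.8 and 71.4 CPM (KO), again with KO replicate 2 highest. Its log2 fold change was 0.41 ± 0.14 (SE; edgeR adjusted p = 0.159) in exons and 0.44 ± 0.15 (edgeR adjusted p = 0.139) in introns. The exon value was 0.59 without KO replicate 1 (edgeR adjusted p = 0.00393) and 0.19 without KO replicate 2 (edgeR adjusted p = 0.514). Spns2, the transporter that exports sphingosine 1-phosphate, had lower values in KO, from 6.93 and 7.54 CPM in the WT libraries to 4.67 and 4.43 CPM in the KO libraries. The groups did not overlap, and replicates lay close together. Its log2 fold change was -0.67 ± 0.21 (SE; edgeR adjusted p = 0.143) in exons and -0.27 ± 0.097 (edgeR adjusted p = 0.173) in introns, where it was -0.39 and passed without KO replicate 1 (edgeR adjusted p = 0.0358). Spns2 shares 131 bases at its end with Mybbp1a on the other strand.

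Sphk2 was the sphingosine kinase with appreciable counts, at 14.1 ± 0.320 CPM per kb of exon in WT and 13.6 ± 0.703 in KO, and the other kinase gene, Sphk1, had 10, 0, 1 and 3 counts. Sphk2 shares 737 bases with Dbp and 2546 bases with Rpl18, both on the other strand. Sgpp1, the phosphatase that returns sphingosine 1-phosphate to sphingosine, was the most abundant gene of the branch per length, at 18.8 ± 2.25 and 18.7 ± 2.20 (SD, n = 2 each). Replicate 1 was the higher in both genotypes, at 20.4 and 20.3 CPM per kb, and replicate 2 the lower, at 17.2 in each. Its intron log2 fold change was -0.29 ± 0.11 (SE; edgeR adjusted p = 0.193), against -0.0045 in exons.

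Of the receptors, S1pr4, typical of blood cells, lay at 4.44 ± 0.0650 CPM per kb of exon in WT and 5.51 ± 0.648 in KO, and S1pr2 at 3.10 ± 0.188 and 3.49 ± 0.309. Both were slightly higher in both KO libraries. The log2 fold change was 0.31 ± 0.16 (SE; edgeR adjusted p = 0.332) for S1pr4 and 0.17 ± 0.12 for S1pr2 (edgeR adjusted p = 0.476). S1pr1, the receptor that guides lymphocytes out of lymphoid tissue, had 0 counts in all 4 libraries.

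Cerk, which phosphorylates ceramide, lay at 19.6 ± 1.21 CPM per kb of exon in WT and 20.7 ± 0.436 in KO (SD, n = 2 each), with a log2 fold change of 0.08 in exons and 0.19 in introns (edgeR adjusted p = 0.544 and 0.235). Among glycosphingolipid genes, Ugcg, the glucosylceramide synthase, lay at 66.6 and 67.2 CPM (WT) and at 81.9 and 76.7 CPM (KO). The WT libraries were nearly equal and both KO libraries were above them. Its log2 fold change was 0.25 ± 0.073 (SE; 95% interval 0.07 to 0.42; edgeR adjusted p = 0.124) in exons and 0.06 (edgeR adjusted p = 0.849) in introns. B4galt5, a lactosylceramide synthase, was the most abundant glycosphingolipid gene of the 39 per length, at 23.4 ± 0.477 CPM per kb in WT and 27.3 ± 2.86 in KO. Its log2 fold change was 0.22 ± 0.081 (SE; edgeR adjusted p = 0.188) in exons and 0.28 ± 0.10 (edgeR adjusted p = 0.174) in introns. Without KO replicate 1 these were 0.32 and 0.39 and both passed (edgeR adjusted p = 0.0210 and 0.0253), and without KO replicate 2 they were 0.11 and 0.16. The second lactosylceramide synthase, B4galt6, lay at 9.26 ± 0.551 and 8.76 ± 0.0177, and Gba2, the non-lysosomal glucosylceramidase, at 6.89 ± 0.909 and 6.39 ± 0.297. Their log2 fold changes were -0.08 (edgeR adjusted p = 0.647) and -0.11 (edgeR adjusted p = 0.651).

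**Figure D5:**
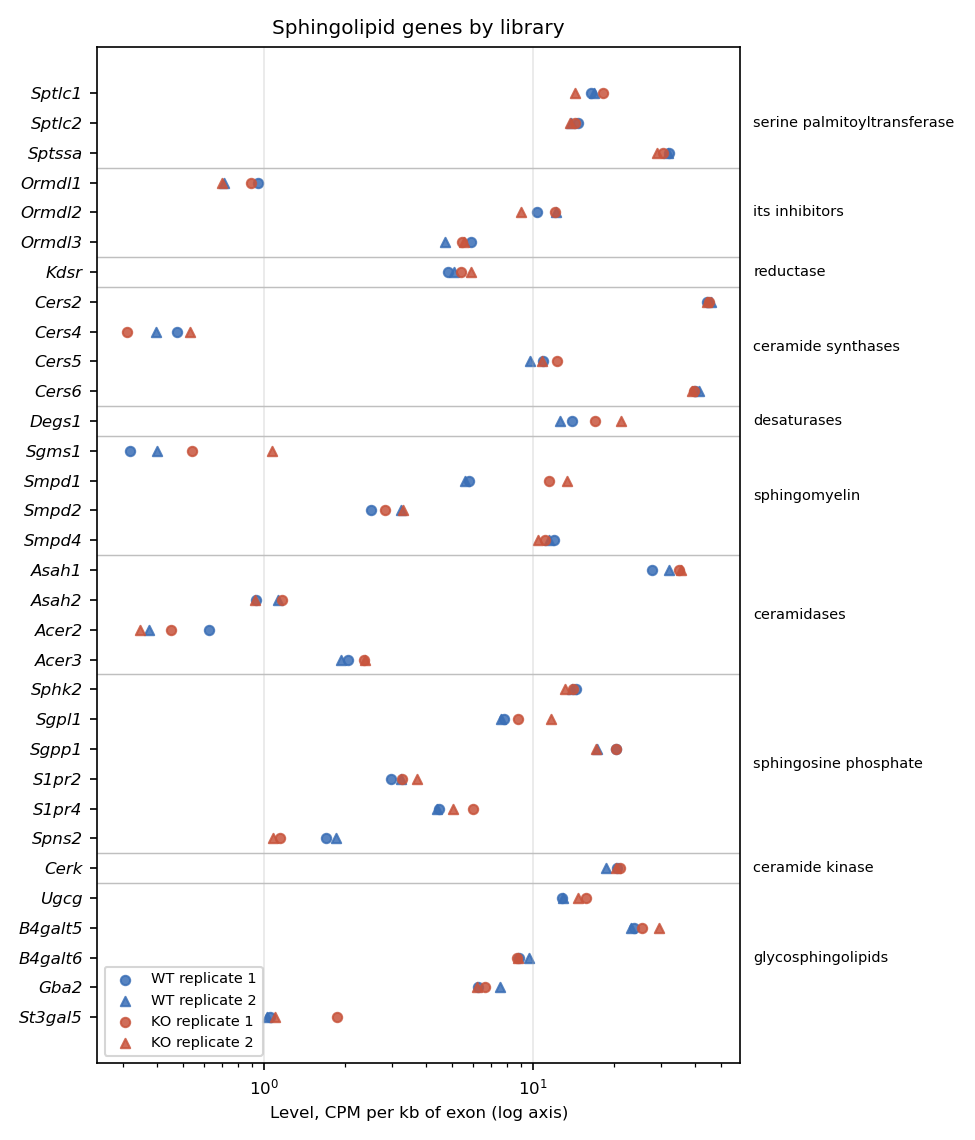
Level of the 32 tested members in each library (CPM per kb of exon, log axis), grouped by role; circles and triangles are replicates 1 and 2, blue is WT and red is KO. Cers2, Cers6, Asah1 and Sptssa lie highest, most members have all 4 points close together, and Smpd1, Sgms1, Degs1 and Spns2 have blue and red points apart.

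A wider list of 42 sphingolipid genes outside the 39 was examined in the same fits. Of these, 30 passed the filter in exons and 0 were called in edgeR, with 8 at an unadjusted p under 0.05 (7 higher, 1 lower); DESeq2 called 1, B4galnt1, and limma-voom 0, while junction reads gave 1, no filter on low counts 5 and leaving out KO replicate 1 gave 6. The median log2 fold change was 0.10. Psap, the precursor of the saposins that present sphingolipids to lysosomal enzymes, reached 570 and 587 CPM in the WT libraries and 828 and 1450 CPM in the KO libraries. KO replicate 2 was far the highest, and the log2 fold change of 0.98 ± 0.22 (SE) did not pass (edgeR adjusted p = 0.0708), although it did without KO replicate 1 (1.33, edgeR adjusted p = 1.10e-06) and without KO replicate 2 (0.52, edgeR adjusted p = 0.00197). St3gal2, a ganglioside sialyltransferase, had a log2 fold change of 0.89 ± 0.22 (SE; edgeR adjusted p = 0.0829) in exons and 0.07 in introns, and the difference passed (edgeR adjusted p = 0.0491), 1 of 28 listed genes; it was lost without the library term (edgeR adjusted p = 0.826) and on leaving out the first WT, the second WT or the second KO library (0.237, 0.0987 and 0.601). St3gal1, another sialyltransferase, was the 1 of 30 called in introns, with a log2 fold change of 1.06 ± 0.23 (SE; edgeR adjusted p = 0.0430) there and 0.45 ± 0.11 (edgeR adjusted p = 0.0876) in exons; the intron call was lost with DESeq2 (adjusted p = 0.132) and in edgeR without WT replicate 1 or KO replicate 2 (0.185 and 0.143). B4galnt1, which extends gangliosides, had a log2 fold change of -0.30 ± 0.082 (SE; edgeR adjusted p = 0.102) in exons. Sgms2, a second sphingomyelin synthase gene, lay at 329 and 318 CPM (WT) and at 378 and 280 CPM (KO), overlapping between genotypes. Per kb of exon its mean was 52.0 in WT and 52.8 in KO, against 0.358 and 0.805 for Sgms1. The Sgms2 log2 fold change was 0.02 ± 0.13 (SE; edgeR adjusted p = 0.934) in exons and -0.09 ± 0.11 (edgeR adjusted p = 0.715) in introns. The summed monocyte and macrophage genes moved with Psap, Degs1 and Sgpl1, all highest in KO replicate 2, and their part was not tested.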

How the data were processed

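Total RNA (Trizol, a directional library kit) was sequenced from 4 libraries, mapped to mm10 per the submitters' processing notes. Which aligner and counter were used, and whether strand was used, is not stated in any source at hand. The authors deposited raw counts per gene of exon, uniquely placed exon, exon-junction and intron reads, with no normalization per the file headers, and a comparison of the genotypes with a signed fold score and p-values from a test the headers name EDGE. From these, CPM (with TMM-scaled library sizes) and CPM per kb of exon length were computed here, and 99.6% of the gene IDs were found in GENCODE vM21. Differences were tested with edgeR 4.0.16 (R 4.3.3; quasi-likelihood test, filterByExpr with a minimum count of 10 and a minimum total of 15, Benjamini-Hochberg adjustment over all genes tested, threshold 0.05), separately for exon and for intron reads. The exon change minus the intron change was tested over 8 columns with a term for each library, which left 2 residual degrees of freedom. The tests were checked on simulated data. The alternatives tried were DESeq2 1.42.0, limma-voom 3.58.1, upper-quartile and RLE scaling, other filters, other read classes, a replicate block and leaving out each library. Replicates of a genotype differed by more than counting noise (chi-square over its degrees of freedom, 4.42 for WT and 6.50 for KO). Libraries held 8986502 to 11941588 exon counts.

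The members, the list of further sphingolipid genes, the marker lists and the roles were chosen with earlier results of these data known. Values are given for each member at an adjusted p under 0.05, for the 12 smallest exon p-values, the 6 smallest intron and the 6 smallest difference p-values, and for further sphingolipid genes called or among the 4 smallest exon p-values. Sgms2 is given as well, as a second sphingomyelin synthase gene beside Sgms1. Promoters came from RefSeq (GRCm38.p6). Other marker lists were also summed: megakaryocyte genes at 4.38 and 3.18 CPM (WT) and 2.45 and 1.54 CPM (KO), mast and basophil genes at 40.1 and 35.6 and at 19.3 and 32.9, eosinophil genes at 385 and 88.3 and at 47.7 and 16.3, and stromal and endothelial genes at 155 and 156 and at 122 and 154. A further marker list is not reported here.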

Additional observations from a re-analysis of the deposited data

How the results depend on the processing

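With 1 member called by exon counts, RLE and upper-quartile scaling, DESeq2, limma-voom, a minimum mean of 1 CPM, uniquely placed exon reads and junction reads (chosen after seeing the data) also called 1, Smpd1, whose log2 fold change stayed between 1.01 and 1.71. Without a filter on low counts 5 members were called (also Sgms1, Degs1, Sgpl1 and Asah1) and 1677 genes in all, against 329. Leaving out single libraries gave 0 to 5 members and 14 to 1449 genes. In introns, library sizes from exon reads left 1 of 2 members, leaving out single libraries gave 0 to 4 members and 287 to 1299 genes, and no filter gave 1565 genes against 595. The difference of exon and intron changes called 0 members under every alternative run. Over the single members and listed genes under the alternatives, 280 values kept their direction and side of the threshold, 28 newly passed, 15 no longer passed and none changed sign while called. The cause of these shifts was not tested. With 2 libraries a group and few counts for Sgms1 and St3gal5 exons, modest changes cannot be told from replicate spread.

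The replicate numbers were shared between genotypes, and the deviations of same-numbered libraries were only weakly correlated (correlation 0.094). A replicate block gave 3 members and 875 genes in exons (Smpd1, Sgms1 and Degs1) and 2 members and 1430 genes in introns. Of the further sphingolipid genes the block called 4 in exons and 4 in introns, against 0 and 1 without it.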
